A study of Caenorhabditis elegans with 245 samples.

Results

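The siRNA synthesis genes of Caenorhabditis elegans are described here as a set of 10 genes chosen by name, out of 46743 genes in the mRNA tables: dcr-1, eri-1, rrf-3, rrf-1, ego-1, drh-3, ekl-1, mut-16, mut-7 and mut-2. Their mRNA was followed in single embryos and in adults, and 2 kinds of small RNA were followed for each transcript in sperm, males and females. Reads of 18–40 nt RNA that ran in the sense of a transcript were counted by the authors as mRNA fragments, and antisense reads as endogenous siRNAs (endo-siRNAs). All 10 genes were found in every table.

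The study asked how RNST-2, the RNase T2 enzyme of the worm, shapes tRNA-derived RNAs (tDRs) in sperm, and what sperm of rnst-2 mutants change in the offspring. All 245 samples carry a fog-2 mutation, which leaves hermaphrodites without sperm so that they act as females, and fog-2 alone serves as the wild type (WT). Small RNA was sequenced from sperm homozygous for the catalytic allele rnst-2(pen4) and from a second set of homozygous catalytic males (4 and 3 libraries), from homozygous rnst-2(pen4) males against rnst-2(pen4)/tmc16 heterozygotes (6 and 5), from homozygous rnst-2(pen1) deletion males against rnst-2(pen1)/tmc16 heterozygotes (6 and 5), from the same pair of deletion genotypes in females (4 and 4), and from WT sperm and WT males (4 and 4). Single embryos at the 8-cell and 2-cell stages came from fathers with the deletion, so that they were rnst-2(pen1)/+;fog-2 (26 and 25 embryos), or from fog-2 fathers (20 and 30). Further rnst-2-sired embryos of the same genotype came from fog-2 mothers whose germline had been injected after mating, either with RNAs antisense to a pair of tDRs together with GFP mRNA (anti-tDR, 20 embryos at 8 cells and 23 at 2 cells) or with GFP mRNA alone (GFP-injected, 18 and 26). Adult F1 progeny were labelled rnst-2(pen4)/+;fog-2 or fog-2 females and males (3 samples each), and the fog-2 group is called control-sired here. For this mRNA experiment the study names WT fog-2 males as fathers of the controls. A header line of the adult values instead points to heterozygous catalytic fathers, which the study's methods name for the heat shock assay. A wild-type father can therefore not be assumed for the control-sired group. Adult and small RNA samples are pools of worms, whereas each embryo is its own library. Embryos of a group were collected on a few separate days from shared matings, the labels do not give the day, and the tests treat embryos as independent, so their p-values may be too small.

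In worms, short RNAs that match a transcript are made in steps. Dicer cuts double-stranded RNA into primary siRNAs, and RNA-dependent RNA polymerases (RdRPs) then copy the targeted mRNA into secondary siRNAs, which are antisense to it and are loaded onto Argonaute proteins. Much of this copying takes place in mutator foci, granules next to the nuclei of germ cells, and mutants of these genes are known for defects in RNA interference, in silencing of transposons or in fertility.

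The RdRPs of worms share a catalytic loop with the motif aspartate, any residue, aspartate, glycine, aspartate. It is shown for rrf-3, the member with the largest differences between WT sperm and WT males, with the 5 codons of the motif in capitals (chrII:8166374-8166400, plus strand, WBcel235).
rrf-3: ggttcaGATTTGGATGGAGATgagtat

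The genes fall into 3 roles. Primary siRNAs need dcr-1, the only Dicer of the worm (chromosome III, positions 8071967 to 8080281, minus strand). Those made through the ERI complex also need its RdRP rrf-3 (chromosome II, 8162465 to 8168651, plus strand). The exonuclease eri-1 (chromosome IV, 415635 to 419958, minus strand) belongs to the same complex and is needed for them too. Copying of targets needs the RdRPs rrf-1 (chromosome I, 7643431 to 7649777, minus strand) and ego-1 (chromosome I, 7650341 to 7656338, minus strand), which work with the Dicer-related helicase drh-3 (chromosome I, 7820831 to 7826378, plus strand) and the Tudor domain protein ekl-1 (chromosome I, 7095486 to 7098400, plus strand). The mutator group holds mut-16, the scaffold of the foci (chromosome I, 10080159 to 10085765, plus strand), the exonuclease mut-7 (chromosome III, 9539031 to 9542380, minus strand) and the nucleotidyltransferase mut-2, which adds tails to targeted RNAs (chromosome I, 6356614 to 6358411, minus strand). Positions are those of the WBcel235 annotation. Thus 6 of the 10 genes lie on chromosome I, where ego-1 and rrf-1 are neighbours 563 bases apart. The neighbours ego-1 and rrf-1 have 105 stretches of 22 bases in common, so short reads from one can match the other. Stretches of 22 bases that occur elsewhere in the genome made up 2.21% of ego-1, 2.56% of rrf-1 and 7.48% of ekl-1, and less in the other genes. Of mut-2, 67 of 1557 exon bases lie opposite an exon of bli-4, and of rrf-3 37 of 5530 lie opposite T05C12.11, and the sources used here do not state that the mRNA reads were counted by strand.

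Before the members are compared, the libraries differ in ways that touch them. Of 188 embryos, 32 stood apart, with ribosomal RNA genes over 35% of the transcripts-per-million total (TPM) or fewer than 5500 rows above 0: 5 and 4 of the rnst-2-sired embryos at 8 and 2 cells, 0 and 12 of the WT-sired ones, 1 and 7 after anti-tDR and 1 and 2 after GFP. Small RNA libraries held 4976236 to 51191372 counts, of which rRNA took a median of 64.2% in catalytic sperm, 26.5% in the second set of catalytic males, 24.2% against 4.00% in catalytic homozygous and heterozygous males, 19.5% against 3.86% in deletion males, 4.52% against 3.62% in deletion females, and 23.6% against 4.15% in WT sperm and WT males. As a check of the labels, rnst-2 itself was at 12.9 to 15.1 TPM in rnst-2-sired females against 18.1 to 21.1 TPM in control-sired females, and at 21.02 to 22.3 TPM in rnst-2-sired males against 25.8 to 44.3 TPM in control-sired males. Sense fragments of rnst-2 were few, with 0 counts in each homozygous deletion female library against 0 to 5 in heterozygous ones, and 2 to 15 in homozygous deletion males against 0 to 32 in heterozygous ones, which overlap. Spermatogenesis markers summed to at least 11380 TPM in males and at most 2.23 TPM in females, oocyte markers to at least 627 TPM in females and at most 32.2 TPM in males, and embryos had 4 of 4 germline markers and medians of 0 for muscle, intestine and hypodermis markers. In bulk samples, fewer cells of a type and less RNA per cell cannot be told apart.

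All 10 mRNAs were present in early embryos, and together they had a median of 436 TPM at 8 cells and 490 TPM at 2 cells in rnst-2-sired embryos, and 431 and 463 TPM in WT-sired embryos. By median TPM in WT-sired 2-cell embryos, which compares genes per length, eri-1 came first with 69.8, followed by drh-3 with 52.1, rrf-3 with 41.5, rrf-1 with 39.1, mut-2 with 39.0, mut-16 with 37.4, dcr-1 with 28.98, ego-1 with 28.9, mut-7 with 27.9 and ekl-1 with 20.3. Ranges over embryos were wide, for example 6.29 to 138 TPM for eri-1 and 0 to 88.3 TPM for ekl-1, so that neighbours in this order do not differ beyond their spread. Injected embryos come from a separate experiment and were not tested against those above. Their sums were 234 and 252 TPM after anti-tDR and 237 and 278 TPM after GFP. In them rrf-3 was lower in the order, with medians of 6.78 to 12.4 TPM over the 4 groups.

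**Figure D1:**
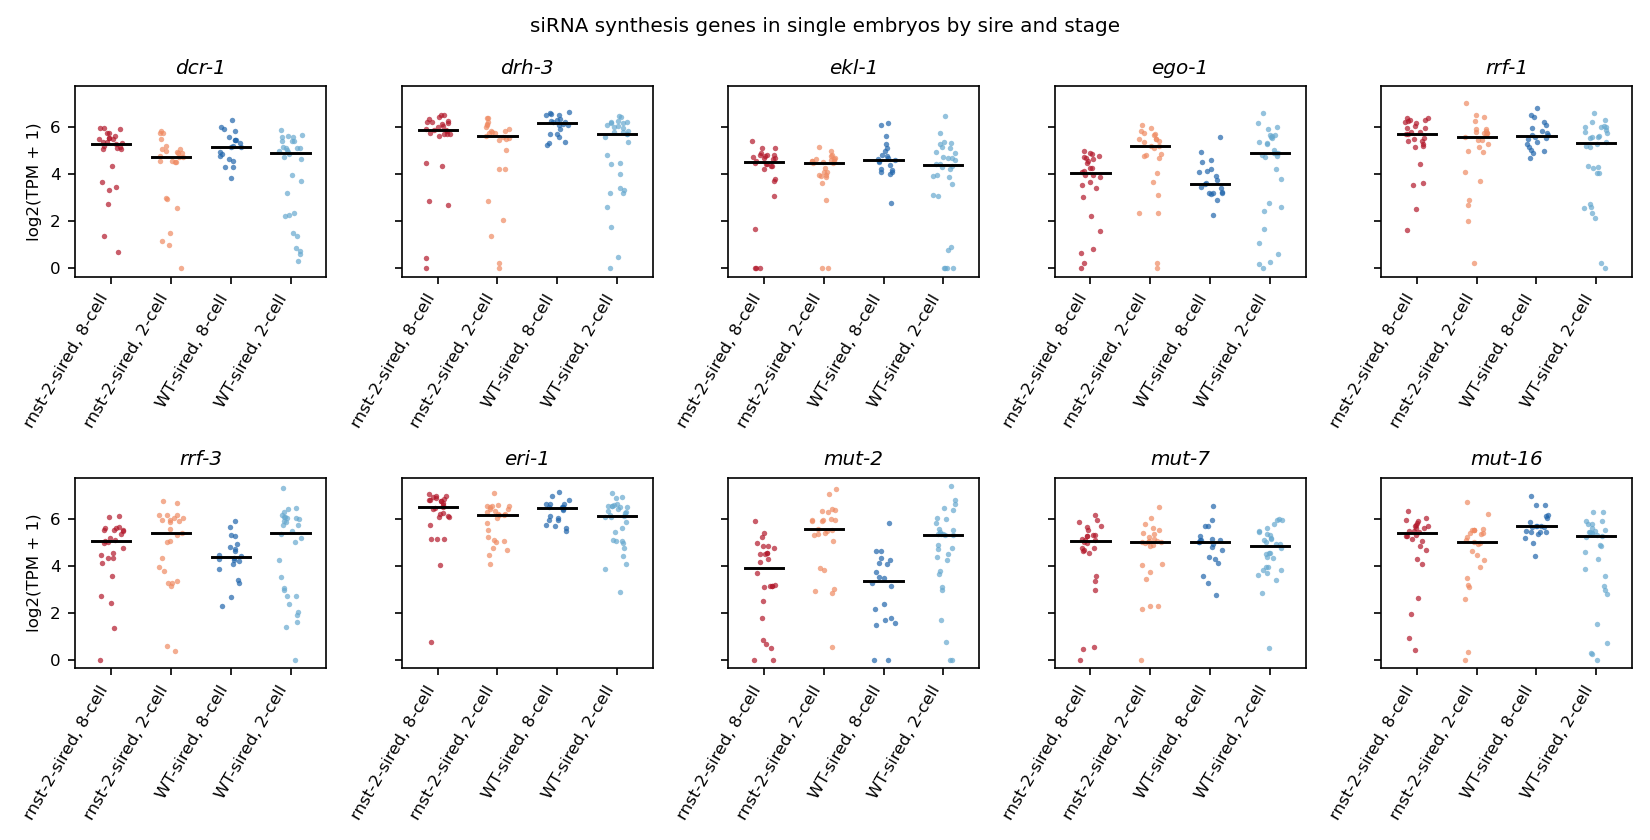
Levels of the 10 siRNA synthesis genes in single embryos, as log2(TPM + 1) on the vertical axis, with 1 point per embryo and a bar at the median of each group (26 and 25 rnst-2-sired embryos at 8 and 2 cells, 20 and 30 WT-sired). The medians of mut-2 lie at 14.3 and 9.35 TPM at the 8-cell stage against 46.4 and 39.0 TPM at the 2-cell stage, while all groups overlap for every gene.

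The clearest change among the 10 genes was that of mut-2, which fell between the stages in all 4 kinds of embryo. In rnst-2-sired embryos mut-2 was at 0 to 59.2 TPM at 8 cells (median 14.3) against 0.47 to 154 TPM at 2 cells (median 46.4), and in WT-sired embryos at 0 to 56.2 TPM (median 9.35) against 0 to 168 TPM (median 39.0). After anti-tDR it was at 0 to 14.3 TPM (median 6.67) against 0 to 64.9 TPM (median 28.9), and after GFP at 0 to 43.9 TPM (median 10.4) against 0 to 90.4 TPM (median 36.7). The 8-cell medians were thus below the 2-cell medians throughout, although single embryos of the groups overlap. On log2(TPM + 1), a scale that understates the change of low genes, the difference was −1.82 ± 0.45 (SE; adjusted p = 0.00162) in rnst-2-sired, −1.61 ± 0.50 (adjusted p = 0.0107) in WT-sired, −1.93 ± 0.48 (adjusted p = 0.0027) in anti-tDR and −1.90 ± 0.38 (adjusted p = 9.51e-05) in GFP-injected embryos, by limma over all genes tested with Benjamini-Hochberg adjustment. Oocyte markers moved with mut-2, with median sums of 428 TPM at 8 cells against 1078 TPM at 2 cells in rnst-2-sired, 359 against 938 TPM in WT-sired, 388 against 878 TPM in anti-tDR and 390 against 1188 TPM in GFP-injected embryos, and their part in its fall was not tested. The gene opposite it, bli-4, had medians of 83.4 to 116 TPM in these groups and was not lower at 8 cells in the rnst-2-sired, WT-sired and anti-tDR embryos (116 against 106, 105 against 103 and 94.3 against 83.4 TPM), while after GFP it had 88.5 TPM at 8 cells against 95.9 TPM at 2 cells.

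Among the RdRPs, ego-1 had the next largest falls. Its medians were 15.5 TPM at 8 cells against 35.9 TPM at 2 cells in rnst-2-sired, 11.2 against 28.9 TPM in WT-sired, 8.80 against 17.2 TPM in anti-tDR and 8.99 against 21.6 TPM in GFP-injected embryos. The limma test passed in GFP-injected embryos (−0.92 ± 0.27, adjusted p = 0.00626) and not in the others (−1.04 ± 0.45, −0.33 ± 0.47 and −0.23 ± 0.51, adjusted p = 0.0901, 0.607 and 0.814 in rnst-2-sired, WT-sired and anti-tDR embryos). rrf-3 had medians of 32.0 TPM at 8 cells against 40.8 TPM at 2 cells in rnst-2-sired and 19.9 against 41.5 TPM in WT-sired embryos, with differences of −0.25 ± 0.44 and −0.18 ± 0.46 that did not pass.

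In WT-sired embryos 4 further genes were higher at 8 cells, namely the scaffold mut-16 (median 50.3 TPM at 8 cells against 37.4 TPM at 2 cells, 1.47 ± 0.44, adjusted p = 0.00741), the helicase drh-3 (72.1 against 52.1 TPM, 1.28 ± 0.40, adjusted p = 0.0107), Dicer dcr-1 (35.4 against 28.98 TPM, 1.24 ± 0.42, adjusted p = 0.019) and the RdRP rrf-1 (48.6 against 39.1 TPM, 1.06 ± 0.40, adjusted p = 0.0347), by limma with Benjamini-Hochberg adjustment. Thus 4 of 10 members were higher, where 25.9% of all genes tested were, and 1 was lower, where 9.32% were. In the other embryos 0 of 10 were higher, where 10.1% of all genes were in rnst-2-sired, 8.75% in anti-tDR and 8.16% in GFP-injected embryos, and those lower were 1 of 10 in rnst-2-sired embryos (all genes, 11.6%), 1 of 10 after anti-tDR (4.02%) and 2 of 10 after GFP (21.6%). The median member differed by 0.10 in rnst-2-sired, 0.74 in WT-sired, 0.37 in anti-tDR and −0.03 in GFP-injected embryos on the log2(TPM + 1) scale, beside 0.10, 0.37, 0.25 and −0.17 for all genes. No member passed the test of a stage change that differs by sire or by injection (0 of 10 for rnst-2-sired minus WT-sired, where 0.0304% of all genes were called, and 0 of 10 for anti-tDR minus GFP, where 0% were, by the limma interaction, with 0 members at an unadjusted p under 0.05 in either). Without the embryos that stood apart, as set out next, rrf-3 (1.09 ± 0.42, unadjusted p = 0.0101, adjusted p = 0.275) and eri-1 (0.54, unadjusted p = 0.0456, adjusted p = 0.346) were under 0.05 unadjusted by sire, and none passed limma's adjusted threshold.

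The rises in WT-sired embryos rested on the 12 WT-sired 2-cell embryos that stood apart. Without the embryos that stood apart, a selection made after the values were seen, none of the 4 rises passed (mut-16 0.44, drh-3 0.26, dcr-1 0.09, rrf-1 0.11) and 3 genes were lower (all genes, 23.5%). These were mut-2 (−2.46 ± 0.39, adjusted p = 1.58e-06, 9.35 against 41.4 TPM), ego-1 (−1.59 ± 0.27, adjusted p = 4.24e-06, 11.2 against 43.5 TPM) and rrf-3 (−1.30 ± 0.33, adjusted p = 0.00118, 19.9 against 61.2 TPM). In rnst-2-sired embryos the same selection left mut-2 (−1.69, adjusted p = 0.00187) and ego-1 (−1.06, adjusted p = 0.00323) lower (all genes, 16.1%) and dcr-1 (0.71, adjusted p = 0.0361) and eri-1 (0.53, adjusted p = 0.0233) higher (all genes, 18.8%), by limma with Benjamini-Hochberg adjustment. The median of all genes moved with it, to −0.07 in WT-sired embryos.

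**Figure D2:**
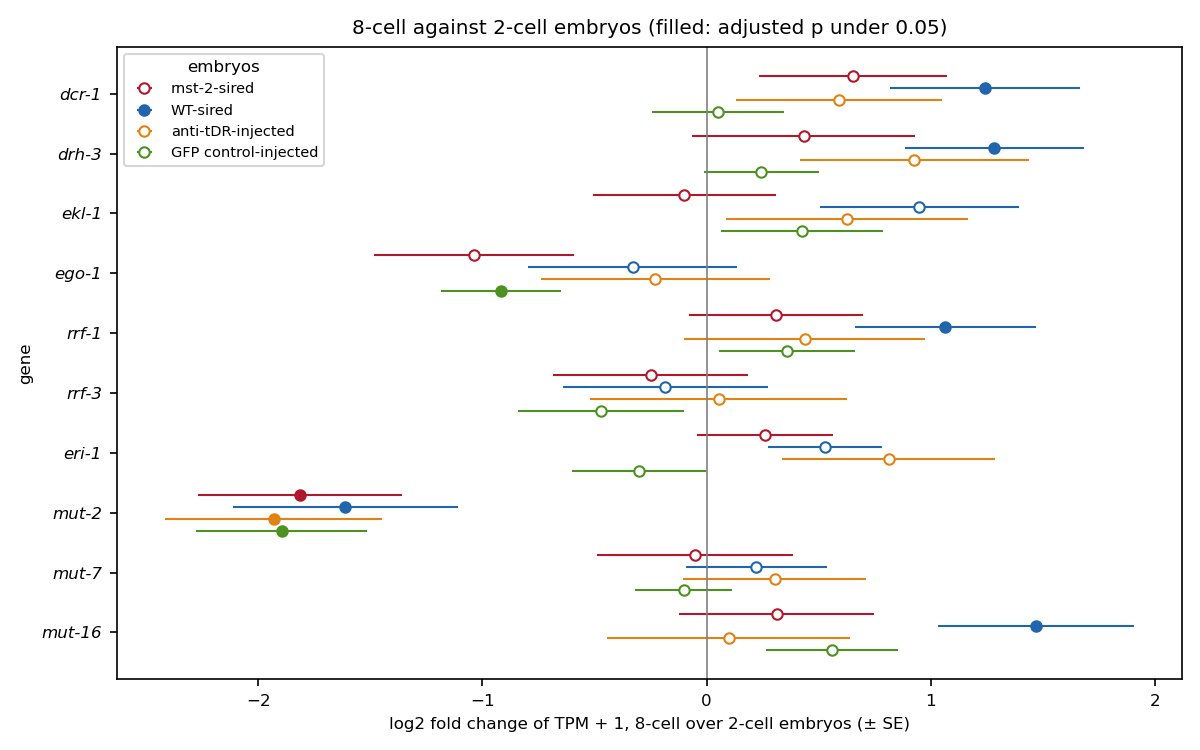
Difference between 8-cell and 2-cell embryos for each of the 10 genes in the 4 kinds of embryo, as a log2 fold change of TPM + 1 with its standard error, and filled points where the adjusted p of limma was under 0.05. mut-2 lies at −1.61 to −1.93 in all 4 kinds of embryo, and the 4 filled points above 0 (1.06 to 1.47) are those of WT-sired embryos.

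Of 27 other genes of the pathway, hrde-2, a germ granule factor, was lower at 8 cells in each kind of embryo (−0.97, −1.11, −0.78 and −0.81 in rnst-2-sired, WT-sired, anti-tDR and GFP-injected embryos, adjusted p = 0.0149, 5.64e-05, 0.0155 and 4.79e-05 by limma with Benjamini-Hochberg adjustment). In rnst-2-sired embryos 0 of 24 tested were higher and 3 lower, among them the ERI complex gene eri-3 (−1.30). In WT-sired embryos 5 of 23 were higher, led by the Dicer-related helicase drh-1 (1.68) and by rsd-6 (1.24), a gene needed for the RNAi response, and 4 were lower, among them the germ granule gene elli-1 (−1.93). After anti-tDR 0 of 24 were higher and 1 lower, and after GFP 0 were higher and 5 lower, with elli-1 at −1.95.

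Between sires, no difference in the 10 embryonic mRNAs passed a test. In 2-cell embryos the differences between rnst-2-sired and WT-sired embryos lay between −0.10 ± 0.36 (mut-7) and 0.60 ± 0.46 (mut-2), and 0 of 10 passed limma (all genes, 0%, and 0 members at an unadjusted p under 0.05). In 8-cell embryos they lay between −0.93 ± 0.36 (mut-16, median 40.9 TPM in rnst-2-sired against 50.3 TPM in WT-sired embryos) and 0.39 ± 0.49 (mut-2), and 0 of 10 passed (all genes, 0.0438%), with mut-16 and drh-3 (−0.85 ± 0.39) at an unadjusted p under 0.05 and an adjusted p of 0.618 each. The 95% intervals (normal approximation) leave room for change in either direction, for example −0.31 to 1.51 for mut-2 at 2 cells. Many signs changed without the embryos that stood apart. At 2 cells 8 of 10 members were then below 0, with drh-3 at −0.47 and dcr-1 at −0.43 and a median of −0.25, where the median of all embryos was 0.25. The median of all genes also changed sign there, from 0.16 to −0.10. At 8 cells mut-16 was at −0.27 and drh-3 at −0.10, rrf-3 was the largest at 0.83 (adjusted p = 0.157 by limma), and the median was 0.21, where that of all embryos was −0.35. For all genes the median went from −0.18 to 0.14. No member passed at either stage. A rule on the unadjusted p (Welch, up to 0.01) with a log2 fold change over 1 also gave 0 at either stage, and the other genes of the pathway gave 0 of 23 at each.

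Injection with anti-tDR gave no call either. At 2 cells eri-1 had the largest difference, with a median of 56.2 TPM after anti-tDR (0 to 94.5) against 64.1 TPM after GFP (28.2 to 96.4), or −1.04 ± 0.41 (adjusted p = 0.0932), and 0 of 10 members passed limma (all genes, 0.437%, with 1 member at an unadjusted p under 0.05). The median member was at −0.57, beside −0.53 for all genes. Without the embryos that stood apart, 7 of them in the anti-tDR group, eri-1 was at −0.20 and the median of all genes at −0.09. At 8 cells the members lay between −0.78 ± 0.46 (mut-2) and 0.43 ± 0.50 (rrf-3), and 0 of 10 passed (all genes, 0%, and 0 members at an unadjusted p under 0.05). That unadjusted rule gave 0 at both stages, and of the pathway's other genes 0 of 24 passed at 2 cells and 0 of 22 at 8 cells.

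In F1 adults the genes were higher in females than in males, and eri-1 had the largest difference. Among rnst-2-sired adults eri-1 was at 26.9, 24.1 and 28.7 TPM in females against 3.36, 2.74 and 2.17 TPM in males, and among control-sired adults at 15.7, 17.1 and 18.97 TPM in females against 1.92, 1.54 and 3.22 TPM in males. mut-2 was at 29.8, 34.5 and 32.5 TPM against 8.04, 6.57 and 5.87 TPM in rnst-2-sired females and males, and at 20.3, 25.8 and 20.7 TPM against 4.80, 8.16 and 8.01 TPM in control-sired ones. Every female sample lay above every male sample for both genes. The differences were 2.88 ± 0.16 and 2.53 ± 0.21 for eri-1 (adjusted p = 2.14e-06 and 2.29e-05) and 2.10 ± 0.14 and 1.56 ± 0.22 for mut-2 (adjusted p = 6.36e-06 and 0.00035) in rnst-2-sired and control-sired adults, by limma on log2(TPM + 1) with Benjamini-Hochberg adjustment.

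The other members tested had smaller differences. In rnst-2-sired adults ekl-1 was at 24.3, 25.7 and 27.8 TPM in females against 8.77, 8.50 and 4.44 TPM in males (1.76 ± 0.24), mut-7 at 15.95, 18.4 and 15.2 against 7.05, 5.88 and 3.61 TPM (1.46 ± 0.22), drh-3 at 12.3, 15.8 and 17.6 against 5.95, 5.54 and 2.6 TPM (1.56 ± 0.28), and dcr-1 at 9.24, 11.3 and 11.6 against 5.67, 4.72 and 3.17 TPM (1.10 ± 0.21). The RdRP ego-1 was at 8.37, 9.89 and 9.36 TPM in rnst-2-sired females against 3.44, 3.77 and 1.67 TPM in males (1.41 ± 0.25). Of the members tested, mut-16 had the smallest difference, with 8.16, 8.90 and 8.81 TPM against 6.51, 5.51 and 3.24 TPM (0.70 ± 0.23, adjusted p = 0.0228). In control-sired adults mut-16 was at 6.77, 8.75 and 8.88 TPM in females against 5.10, 6.80 and 4.79 TPM in males (0.48 ± 0.18, adjusted p = 0.0391 by limma), where 1 male sample lay above the lowest female one. In control-sired adults ego-1 was at 4.86, 7.27 and 7.72 TPM in females against 2.25, 2.66 and 2.65 TPM in males and missed the filter on low values there. rrf-3 and rrf-1 missed it among adults of both sires, and are given as levels with no test. rrf-3 was at 4.04 to 4.59 TPM in rnst-2-sired females against 1.42 to 3.38 TPM in males, and rrf-1 at 4.54 to 8.92 TPM against 0.84 to 1.06 TPM. In control-sired adults they were at 3.18 to 3.59 TPM against 1.48 to 2.13 TPM and at 3.95 to 5.02 TPM against 0.35 to 1.32 TPM. For both, every female sample lay above every male sample.

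With a mean of at least 5 TPM as the filter, 8 of 8 members tested were higher in rnst-2-sired females (all genes, 62%) and 7 of 7 in control-sired females (all genes, 58.1%). The median member was at 1.51 and 1.31, beside 1.11 and 0.88 for all genes. The scale mattered. With median-of-ratios scaling the median of all genes was −0.32 and −0.35, and higher calls made up 39.8% and 37.1% of all calls, where they made up 72.8% and 69.5% in TPM. On that scale eri-1 (1.68), mut-2 (0.80) and ekl-1 (0.47) stayed higher in rnst-2-sired females. There mut-16 passed as lower in females (−0.50, adjusted p = 0.0179 by limma), and dcr-1 turned to −0.11 without passing (adjusted p = 0.463). In control-sired females eri-1 (1.56) stayed higher, and mut-16 again passed as lower (−0.54, adjusted p = 0.0234 by limma). In TPM the call of mut-16 as higher was lost in 2 of 6 and 4 of 6 fits that left out a sample. Germline markers moved with sex too, with sums of 468 to 522 TPM against 123 to 167 TPM in rnst-2-sired females and males and 447 to 607 TPM against 114 to 249 TPM in control-sired ones, and their part in these differences was not tested. No member passed the test of a sex difference that depends on the sire (0 of 8, all genes 0.0579%, limma interaction, and 0 at an unadjusted p under 0.05). In that test the median member was at 0.27, beside 0.19 for all genes. Of the other pathway genes, 20 of 21 were higher in rnst-2-sired females, led by smut-1 (2.92), a helicase of the mutator foci, and 21 of 21 in control-sired females, with the RNA phosphatase pir-1 at 2.06, and rde-8, an endonuclease that acts on targets, was at 4.23 and 3.49.

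**Figure D3:**
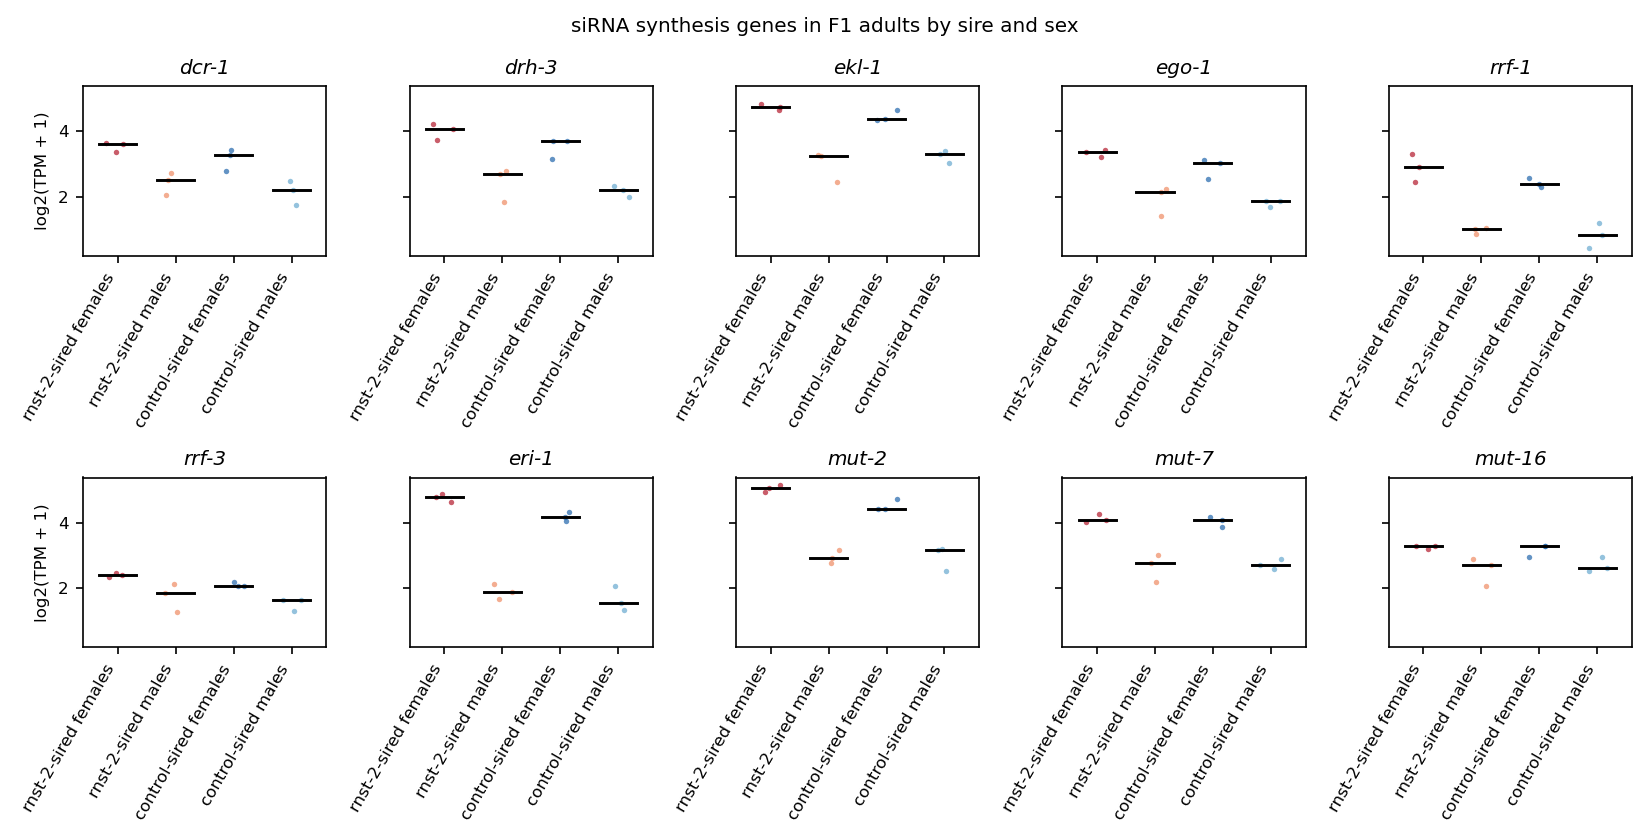
Levels of the 10 genes in F1 adults as log2(TPM + 1), with 1 point per sample, a bar at the median and 3 samples in each of the 4 groups. Female samples lie above male samples for eri-1 (24.1 to 28.7 against 2.17 to 3.36 TPM in rnst-2-sired adults), while those of mut-16 overlap in control-sired adults.

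Between sires, 1 member was called in adults, and the libraries differed with it. Female libraries of rnst-2 fathers had 15750 to 15821 rows above 0 against 14081 to 14550 for control fathers, and 1 of them held 2.69% rRNA where the other female libraries held at most 0.06%. The part of these in the result was not tested. In females eri-1 was at 26.9, 24.1 and 28.7 TPM after an rnst-2 father against 15.7, 17.1 and 18.97 TPM after a control father, so that the groups did not overlap (0.59 ± 0.12, adjusted p = 0.0459 by limma with Benjamini-Hochberg adjustment). It was 1 of 9 members tested, where 6.91% of all genes were higher. mut-2, at 29.8, 34.5 and 32.5 TPM against 20.3, 25.8 and 20.7 TPM, did not overlap either but missed the threshold (0.52 ± 0.13, adjusted p = 0.0546). The median of all genes was at 0.22, and with median-of-ratios scaling it was at 0.00 and eri-1 at 0.38 (adjusted p = 0.0994). The call of eri-1 was lost in each of the 6 fits that left out a sample, and with a mean of at least 1 TPM as the filter (adjusted p = 0.0651). In males 0 of 4 members tested passed (all genes, 0.0426%, and 0 at an unadjusted p under 0.05), with differences of −0.25 ± 0.28 (ekl-1) to −0.01 ± 0.26 (mut-2). Of the other pathway genes rde-8 was higher in females (0.64, adjusted p = 0.0459, 1 of 25) and 0 of 13 in males.

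Small RNAs from these transcripts differed between sperm and whole males in opposite directions for the antisense and the sense class. On a reads-per-million scale (rpm, of all counts), endo-siRNAs against rrf-3 were at 4.22, 3.71, 3.89 and 5.59 rpm in WT sperm against 36.1, 25.8, 21.9 and 19.7 rpm in WT males. Fragments of rrf-3 mRNA were at 3.99, 5.38, 4.06 and 6.45 rpm in WT sperm against 0.430, 0.574, 0.622 and 0.618 rpm in WT males. These male values stand for 38 counts in all, and rrf-3 fragments reached the count filter only with the sperm libraries. Neither class overlapped between the groups, and the log2 differences were −2.57 ± 0.24 (adjusted p = 1.98e-06) for endo-siRNAs and 3.12 ± 0.30 (adjusted p = 2.94e-06) for fragments, by edgeR's quasi-likelihood test with Benjamini-Hochberg adjustment.

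Endo-siRNAs against all 10 genes were lower in WT sperm than in WT males, where 58.9% of all transcripts tested were. After rrf-3 came mut-7 (−1.95), ego-1 (−1.85), mut-2 (−1.79), drh-3 (−1.78), eri-1 (−1.64), dcr-1 (−1.57), ekl-1 (−1.51) and rrf-1 (−0.91). The smallest difference was that of mut-16, at 21.7, 15.5, 16.6 and 18.2 rpm in sperm against 34.98, 30.4, 25.9 and 26.2 rpm in males (−0.71 ± 0.18, adjusted p = 0.00335 by edgeR). In rpm no gene of the 10 had libraries that overlapped, a count that was not made for all transcripts. The median member was at −1.71, beside −0.87 for all transcripts with endo-siRNAs. With rRNA left out of the library size that median was −0.58, and mut-16 missed the threshold (−0.41, adjusted p = 0.0625 by edgeR). On that scale its libraries overlapped, at 20.2 to 28.5 in sperm against 26.7 to 37.1 in males.

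Fragments were higher in WT sperm for 8 of 10 genes, where 64.4% of all transcripts tested were. These were rrf-3, drh-3 (3.06 ± 0.33), ego-1 (2.57), ekl-1 (2.52), mut-7 (2.47), rrf-1 (2.44), dcr-1 (2.06) and eri-1 (1.73). Dicer was the most abundant of them, with 12.7, 16.1, 15.7 and 22.8 rpm in sperm against 1.51, 4.42, 4.17 and 5.82 rpm in males. mut-16 was the exception, with 6.03, 5.74, 6.25 and 6.45 rpm in sperm against 9.68, 7.41, 7.40 and 9.01 rpm in males. Its groups did not overlap, and the difference missed the threshold (−0.45 ± 0.19, adjusted p = 0.0533 by edgeR). mut-2, at 0.637 to 1.41 rpm in sperm against 0.0717 to 0.919 rpm in males, did not pass (0.96 ± 0.56, adjusted p = 0.146). In WT males, fragments of the members other than dcr-1 and mut-16 numbered 19 (eri-1) to 62 (ego-1), with 38 for rrf-3. Those members reached the count filter only with the sperm libraries. The median member was at 2.45, beside 1.79 for all transcripts with fragments.

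The shift shows in the share of antisense reads among all reads of a gene. In WT sperm this share had a median of 37.2% for dcr-1 and 47.7% for rrf-3, against 88.0% and 97.5% in WT males. For rrf-1 it was 88.5% in sperm against 99.0% in males, and for mut-16 it was 73.4% in sperm (72.6 to 78.3%) against 78.1% in males (74.4 to 80.4%), with overlapping libraries. Free of library size, the share was lower in sperm for each of the 10 genes by its median. It gives the same comparison another form and was not tested.

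The other genes of the pathway moved likewise. Endo-siRNAs were lower in WT sperm for 23 of 26, led by nyn-1 (−2.48), a nuclease of the mutator foci, and drh-1 (−2.09), and higher for 0. Fragments were higher for 20 of 24, led by the uridylyltransferase cde-1 (3.95) and by rsd-2 (2.83), a partner of rsd-6, and lower for 0.

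**Figure D4:**
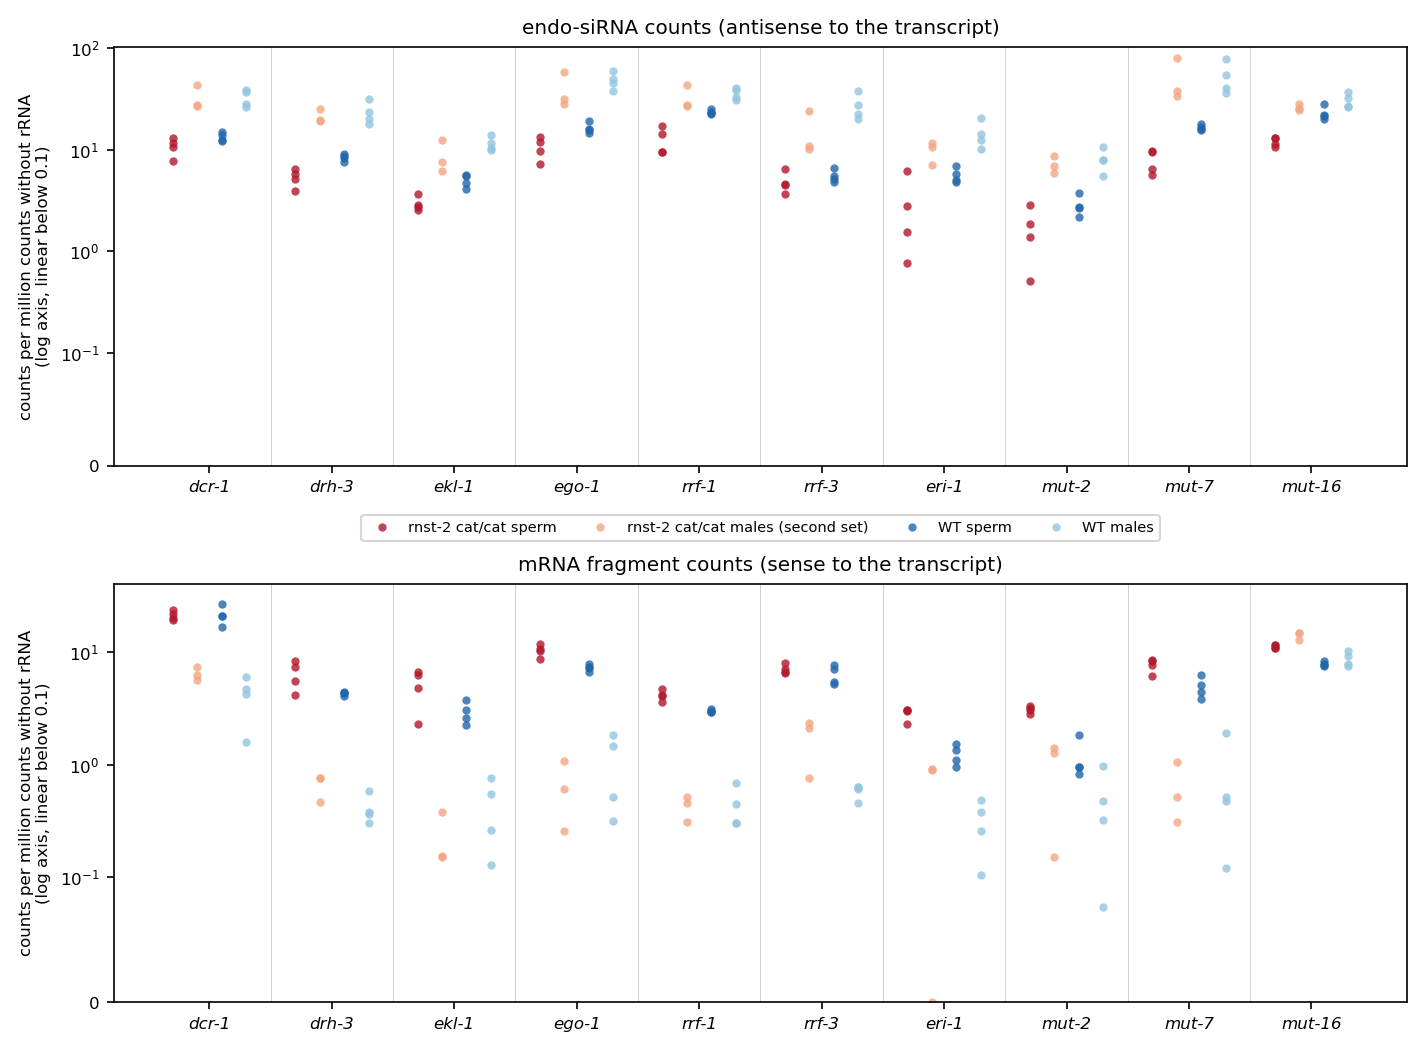
Endo-siRNAs and mRNA fragments of the 10 genes per library, as rpm of the counts without rRNA, on a log axis. The groups are WT sperm, WT males and catalytic sperm (4 libraries each) and the second set of catalytic males (3 libraries). On this scale endo-siRNAs of rrf-3 lie at 4.84 to 6.64 in WT sperm against 20.2 to 38.3 in WT males. Fragments of rrf-3 lie at 5.24 to 7.66 in WT sperm against 0.46 to 0.64 in WT males.

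Sperm of the catalytic mutant also had fewer endo-siRNAs and more fragments of most members than mutant males, with values given as rpm of the counts without rRNA because rRNA took up most of these sperm libraries. Endo-siRNAs against the exonuclease mut-7 were at 9.67, 6.42, 5.67 and 9.46 in catalytic sperm against 33.8, 37.9 and 79.9 in the second set of catalytic males. Fragments of ekl-1 were at 4.84, 6.68, 2.32 and 6.31 in catalytic sperm against 0.384, 0.155 and 0.152 in those males. Neither overlapped, and the differences were −2.68 ± 0.34 (adjusted p = 7.56e-05) and 4.29 ± 0.57 (adjusted p = 9.7e-05) by edgeR with Benjamini-Hochberg adjustment. Those males held 5 ekl-1 fragment counts in all, against 92 in sperm, so the size of its difference rests on few counts. Fragments of the members other than dcr-1 and mut-16 numbered 5 to 35 there. Those members reached the count filter only with the sperm libraries. Endo-siRNAs were lower in sperm for 10 of 10 genes (all transcripts, 70.1%), from −2.68 for mut-7 to −1.12 for mut-16, and fragments higher for 9 of 10 (all transcripts, 75.1%). mut-16 was again the exception, with fragments at 10.8 to 11.6 in sperm against 12.7 to 14.8 in males (−0.33 ± 0.20, adjusted p = 0.148). The median members were at −1.70 and 2.69, beside −1.15 and 2.30 for all transcripts. With endo-siRNA counts as the library size, 6 of the 10 endo-siRNA calls passed. Of the other pathway genes, endo-siRNAs were lower for 20 of 25, led by elli-1 (−2.93) and the mutator gene rde-2 (−2.86), and fragments higher for 16 of 19, led by cde-1 (3.81) and the RNA helicase rde-12 (3.12).

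Set against WT sperm, catalytic sperm had fewer endo-siRNAs against 6 of 10 genes (all transcripts lower, 39%) and more fragments of 7 of 10 (all transcripts higher, 61.1%), as rpm of the counts without rRNA. Endo-siRNAs against mut-7 were at 9.67, 6.42, 5.67 and 9.46 in catalytic sperm against 17.9, 16.9, 15.96 and 15.7 in WT sperm, and those against mut-16 at 11.5, 13.1, 10.6 and 13.1 against 28.5, 20.2, 21.9 and 21.6. Fragments of mut-2 were at 3.22, 3.08, 2.84 and 3.33 in catalytic sperm against 1.84, 0.832, 0.957 and 0.964 in WT sperm. None of these overlapped. The endo-siRNA differences were −1.07 ± 0.20 for mut-7 (adjusted p = 0.000714), −0.93 ± 0.18 for mut-16 (adjusted p = 0.000864), −0.88 for rrf-1, −0.73 for ekl-1, −0.65 for drh-3 and −0.63 for ego-1, by edgeR with Benjamini-Hochberg adjustment. Fragments were higher for mut-2 (1.46 ± 0.31, adjusted p = 0.0019), eri-1 (1.18), ekl-1 (0.79), mut-7 (0.66), drh-3 (0.59), mut-16 (0.51) and ego-1 (0.50), and the median member was at 0.55, beside 0.92 for all transcripts.

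These differences changed with the library size. With all counts as the size, endo-siRNAs were lower for 10 genes. Fragments then passed as lower for rrf-3 (−0.96, adjusted p = 0.00224), mut-16 (−0.59, adjusted p = 0.0198), ego-1 (−0.60, adjusted p = 0.024) and rrf-1 (−0.62, adjusted p = 0.0431 by edgeR), while drh-3 (−0.51), mut-7 (−0.45) and ekl-1 (−0.30) changed sign without passing, and the median of all fragments was at −0.19. With endo-siRNA counts as the size, 0 of 10 endo-siRNA differences passed, and drh-3 (0.05) and ego-1 (0.07) changed sign. Without replicate 2 of catalytic sperm, 4 fragment calls passed. Of the other pathway genes, endo-siRNAs were lower for 17 of 26, led by the RdRP gene rrf-2 (−1.25) and the helicase gene eri-6 (−1.05). Fragments were higher for 17 of 25, led by rde-11 (1.82) and the Dicer partner rde-4 (1.61), and lower for eri-6 (−0.49).

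In whole males, homozygous mutants had fewer endo-siRNAs against these genes than heterozygotes when all counts were the library size. For the deletion allele, endo-siRNAs against the RdRP ego-1 were at 52.1 to 74.5 rpm (median 62.5) in 6 homozygous libraries against 93.1, 113, 112, 133 and 109 rpm in heterozygous ones, and those against rrf-3 at 26.6 to 37.4 rpm (median 31.8) against 60.8, 65.4, 52.1, 51.4 and 51.0 rpm. The groups did not overlap for either gene. In edgeR 6 of 10 genes were lower (all transcripts, 17.9%), which were eri-1 (−1.003 ± 0.26, adjusted p = 0.0234), ego-1 (−0.85 ± 0.15, adjusted p = 0.00508), rrf-3 (−0.83 ± 0.15, adjusted p = 0.00544), mut-7 (−0.82), ekl-1 (−0.75) and drh-3 (−0.60). With a replicate block (same-numbered libraries), an alternative fit in edgeR, rrf-1 (−0.58, adjusted p = 0.0292) and dcr-1 (−0.65, adjusted p = 0.0133) passed too. The labels do not pair these libraries, and the block rests on correlations in these same data (r = 0.178 to 0.431). Without the block, fits that left out 1 library gave 4 to 8 endo-siRNA calls. Of the 2 genes with enough fragments, mut-16 (−0.35 ± 0.41) and dcr-1 (0.28 ± 0.86), 0 passed (all transcripts, 5.29%, with 0 at an unadjusted p under 0.05 and 0 by DESeq2).

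For the catalytic allele, endo-siRNAs against drh-3 were at 18.2 to 24.6 rpm (median 21.9) in 6 homozygous libraries against 59.1, 37.8, 48.9, 48.7 and 46.8 rpm in heterozygous ones, with no overlap (−1.16 ± 0.20, adjusted p = 0.00857 by edgeR). Those against dcr-1 were at 21.5 to 43.1 rpm (median 32.9) against 63.6, 40.4, 47.7, 205.5 and 70.5 rpm (−1.39 ± 0.36, adjusted p = 0.0245). The value of 205.5 is that of heterozygous replicate 4, a library with 12310 rows above 0 where the median of its group is 36457, and with no endo-siRNA count for ekl-1. In all 7 of 10 genes were lower (all transcripts, 17.1%), the others being rrf-3 (−1.09), mut-16 (−1.04), mut-7 (−0.95), ego-1 (−0.90) and rrf-1 (−0.79). Leaving out homozygous replicate 2, 3, 4 or 6 left 4 calls, and dcr-1, rrf-1 and mut-16 were lost each time. Without heterozygous replicate 4 dcr-1 was at −0.77 (adjusted p = 0.0171 by edgeR) and only the call of mut-16 (−0.54, adjusted p = 0.0507) was lost. Fragments gave 0 of 2 (all transcripts, 4.23%), with mut-16 (−0.89 ± 0.41, adjusted p = 0.18) at an unadjusted p under 0.05 and 1 call by DESeq2.

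The endo-siRNA calls in males were lost with another library size. With rRNA counts left out, with endo-siRNA counts alone as the size, or with TMM factors, 0 of 10 passed for either allele, though the called members kept their direction and some groups still did not overlap. Without rRNA, ego-1 was at 67.7 to 93.1 rpm in homozygous deletion males against 96.8 to 141 rpm in heterozygous ones (−0.58, adjusted p = 0.0554 by edgeR), and rrf-3 at 34.6 to 46.3 against 53.0 to 67.8 rpm (−0.55, adjusted p = 0.0637). In catalytic males drh-3 was at 23.6 to 32.4 rpm against 39.4 to 61.5 rpm (−0.83, adjusted p = 0.0928). Per endo-siRNA count, ego-1 (−0.42, adjusted p = 0.254) and rrf-3 (−0.40, adjusted p = 0.293) still did not overlap in deletion males. The rRNA share given above was higher in every homozygous library than in every heterozygous one (18.3 to 25.5% against 3.55 to 5.47% with rnst-2(pen1), 21.2 to 26.9% against 3.90 to 5.72% with rnst-2(pen4)). The median of all transcripts with endo-siRNAs was −0.49 and −0.54 with all counts, and −0.22 and −0.20 without rRNA. The members' medians with all counts were −0.68 with the deletion and −0.92 with the catalytic allele. Of the other pathway genes, endo-siRNAs were lower for 7 of 26 in deletion males (drh-1 −0.90, nyn-1 −0.88) and 9 of 26 in catalytic males (drh-1 −1.11 and the helicase gene mut-14 −1.01), and fragments for 1 of 5 (eri-6 −0.59) and 0 of 9.

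**Figure D5:**
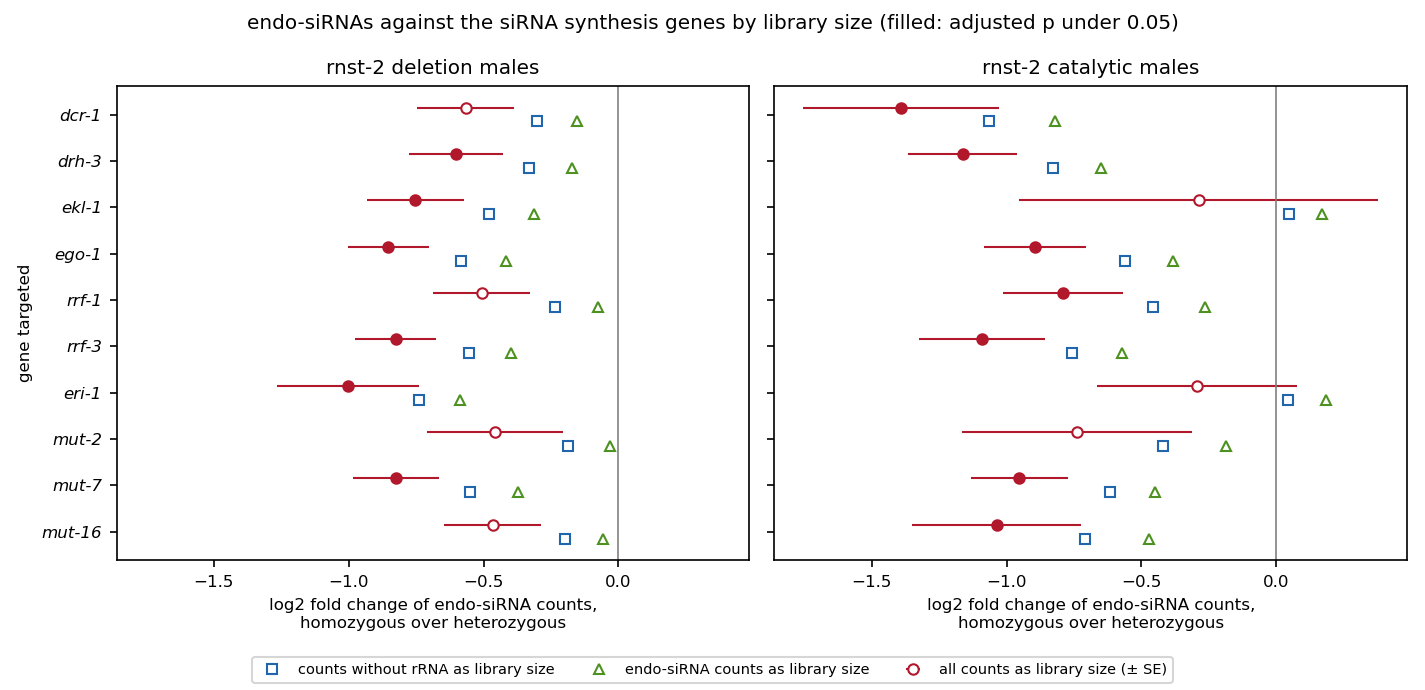
Log2 fold change of endo-siRNAs against each of the 10 genes, homozygous over heterozygous males, for each rnst-2 allele, under 3 choices of library size, with standard errors for the first and filled symbols where the adjusted p was under 0.05. With all counts as the size 6 and 7 genes are filled, and with the other sizes 0.

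In females no member differed by genotype in a way that passed a test. The 10 genes summed to a median of 1223 rpm in homozygous and 1213 rpm in heterozygous deletion females. ego-1 was the highest, with 312, 183, 386 and 204 rpm in homozygous against 211, 316, 370 and 185 rpm in heterozygous libraries, which overlap. Differences ran from −0.00 ± 0.15 (mut-16) to 0.17 ± 0.20 (mut-2), and 0 of 10 passed edgeR (all transcripts, 0.0101%, with 0 members at an unadjusted p under 0.05). Their 95% intervals reached at most 0.61 on the log2 scale, for rrf-3. Fragments gave 0 of 9 (all transcripts, 0%), with ego-1 (−0.74 ± 0.30) at an unadjusted p under 0.05. DESeq2 gave 0 in either class. The other pathway genes gave 0 of 26 and 0 of 13. The antisense share of 9 genes had medians of at least 96.8% in both groups, and that of mut-16 was 81.3% in homozygous and 82.7% in heterozygous females. Males and females were sequenced in different tables and were not tested against each other.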

How the data were processed

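The members and the list of 27 other pathway genes were chosen with earlier results of these data known. For mRNA, the authors deposited TPM plus 1 per gene for single embryos and pooled adults, and 1 was subtracted here. For small RNA, the authors deposited read counts per feature and class, with no normalisation, against WS245 annotation. The submitters' processing notes name Trimmomatic, STAR, RSEM, Bowtie2 and featureCounts. Gene positions are from the Ensembl annotation of WBcel235, and the rrf-3 sequence was read from the RefSeq FASTA of that build.

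Genes averaging 5 TPM or more were tested on log2(TPM + 1) in limma 3.58.1. Transcripts that reached 10 counts in a number of libraries equal to the size of the smaller group were tested in edgeR 4.0.16 by its quasi-likelihood test, each within its own groups, in R 4.3.3. P-values were adjusted by the Benjamini-Hochberg method over all features of the table and called under 0.05. DESeq2 1.42.0 was an alternative. Library size was the sum of all counts for WT sperm and WT males and for homozygous and heterozygous males, and the sum without rRNA where catalytic sperm or females were compared. All 10 members were looked up in every fit, and those below its filter were not tested. Of the pathway list, counts per direction are given with up to 2 genes a direction, those of smallest adjusted p. The scripts were tested on simulated data.

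Same-numbered samples deviated together, with every correlation over 0.1, in 5 pairs of deletion males only (r = 0.178 to 0.431). The WT sperm libraries stand in more than 1 table with identical values and were counted once. Depth limits precision, and counting error is not all the error, since reads carry no molecular identifiers. The labels do not say that replicates were separate cultures in every case, so p-values measure the spread between these samples. In the table of F1 adults a second header line names the samples labelled fog-2 as hetcat and those labelled rnst-2(pen4)/+;fog-2 as catdad. Groups follow the labels. Left out were 1 column of values that matches no sample and the piRNA lines of the female table.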

Additional observations from a re-analysis of the deposited data

Results flagged for a closer look

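In 17 of 180 sets of values, each for a gene and class in a group of 4 to 6 libraries, 1 library lay far from the others. Chance alone flags about 5% of independent sets, and these sets share libraries. Replicate 4 of the catalytic heterozygous males was the highest of its group for endo-siRNAs against dcr-1 (205.5 rpm, the others 40.4 to 70.5), mut-2 (30.83 rpm, the others 8.74 to 12.2) and mut-16 (140.6 rpm, the others 37.8 to 58.6), and for fragments of mut-2 (8.665 rpm, the others 0 to 0.428). Replicate 3 of the deletion homozygous males was the highest for fragments of ego-1 (6.602 rpm, the others 0 to 0.587) and eri-1 (1.589 rpm, the others 0 to 0.335).

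Other single libraries were high for endo-siRNAs against eri-1 in catalytic homozygous males (17.62 rpm, the others 11.9 to 13.5), mut-7 in deletion heterozygous males (171.8 rpm, the others 116 to 127) and mut-2 in deletion homozygous females (39.31 rpm, the others 25.3 to 25.6). For fragments, this held for rrf-1 in WT sperm (2.614 rpm, the others 2.23 to 2.27), rrf-1 in catalytic homozygous males (1.426 rpm, the others 0 to 0.204), eri-1 in catalytic heterozygous males (1.538 rpm, the others 0 to 0.415), ekl-1 (0.7844 rpm, the others 0 to 0.252) and mut-16 (15.03 rpm, the others 4.78 to 8.00) in deletion homozygous males, rrf-3 in deletion heterozygous males (0.5199 rpm, the others 0 to 0.1), and dcr-1 (4.28 rpm, the others 3.005 to 3.15) and eri-1 (2.155 rpm, the others 1.09 to 1.19) in deletion heterozygous females.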

How the results depend on the processing

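Of the comparisons of the 10 members, those named here moved by over 1.5 times in their number of calls, or held called members that changed direction, and the cause was not tested unless given. Among embryos, the 8-cell against 2-cell calls were 1 in WT-sired, 2 in rnst-2-sired and 1 in GFP-injected embryos under the unadjusted rule (Welch, log2 fold change over 1), and 3 in WT-sired and 4 in rnst-2-sired embryos without those that stood apart, an alternative chosen after seeing the data. Between sires, uncalled members changed sign too, and 8 of 10 were below 0 at 2 cells without those embryos, where the median of all genes also changed sign. With the replicate block the calls were 2 in rnst-2-sired and 1 in GFP-injected embryos, 2 for F1 females by sire and 4 for endo-siRNAs in catalytic males, where same-numbered samples did not all deviate together. In deletion males, where they did although no label pairs them, the replicate block gave 8 calls. For F1 females by sire, 0 were called with a mean of at least 1 TPM, with no filter, with median of ratios and under the unadjusted rule, and 0 to 0 when 1 sample was left out. Median of ratios gave 2 calls by sex in control-sired and 4 in rnst-2-sired adults. These include mut-16 called as lower in females (−0.54 and −0.50), and dcr-1, not called, was at −0.11 in rnst-2-sired ones.

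For endo-siRNAs in deletion and in catalytic males, library size without rRNA, endo-siRNA counts as size and TMM each gave 0, and no filter gave 3. Leaving out 1 library gave 4 to 7 calls in catalytic males and 4 to 8 in deletion males. DESeq2 called 1 fragment member in catalytic males. In catalytic against WT sperm, endo-siRNA calls were 10 with all counts as size and 0 with endo-siRNA counts, where drh-3 was at 0.0504 and ego-1 at 0.0730. Fragment calls were 3 with no filter and 4 to 7 with 1 library left out, and with all counts as size mut-16 was at −0.59, drh-3 −0.51, rrf-3 −0.96, ekl-1 −0.30, ego-1 −0.60, rrf-1 −0.62 and mut-7 −0.45. In catalytic sperm against males, 6 endo-siRNA calls passed with endo-siRNA counts as size. In males only 2 members had enough fragments for a test.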

Other observations

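Across the means of the 12 groups of embryos and adults, the gene whose mRNA level followed each member most closely among 8502 genes was found by Pearson's r on log2(TPM + 1). For the genes of primary siRNAs these were rod-1 for dcr-1 (r = 0.989), T06D8.12 for rrf-3 (r = 0.970) and ttll-4 for eri-1 (r = 0.997). For the RdRPs and their partners they were Y55D9A.2 for rrf-1 (r = 0.995), K05C4.5 for ego-1 (r = 0.989), daf-2 for drh-3 (r = 0.993) and cul-4 for ekl-1 (r = 0.958). For the mutator genes they were F46H5.4 for mut-16 (r = 0.986), apr-1 for mut-7 (r = 0.996) and puf-8 for mut-2 (r = 0.983). These are descriptions over group means that share libraries and come from separate experiments.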
